A study of Capra hircus with 29 samples.

Results

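Gene expression was compared between oocytes in large follicles (LLO) and oocytes in small follicles (LSO) of the low fertility group, with 5 samples in each group. These 10 samples belong to a series of 29 oocyte samples in 6 groups, in which large, medium and small follicles were sampled in a low fertility (L) and a high fertility (H) population of Ji'ning grey goats. The populations were separated by litter size, with 2 kids as the limit of the low fertility group and 3 kids as that of the high fertility group. All 10 goat samples carried no treatment and no genetic change, and the age of the does was not given in the sources used here. Each sample held a few oocytes. The methods describe a shared pool of oocytes for each follicle size, spelled out for the high fertility group, that was then divided into samples, so the 5 samples of a group were probably portions of a common pool and not separate animals. The p-values therefore measure the spread between these samples, which may be partly technical. Genes were included when their FPKM (fragments mapped to a gene, scaled by its exon length and by all mapped fragments of the sample, a level corrected for transcript length) was above 0.5 in at least 4 of the 10 samples, which left 8591 of 21343 genes.

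As a follicle grows and forms its fluid-filled cavity, the oocyte inside it completes its growth, stays arrested in the prophase of meiosis and gradually silences transcription. It then lives on stored maternal mRNA, whose storage, adenylation and decay replace new synthesis until the embryonic genome is switched on. The growing oocyte also multiplies its mitochondria, builds up ribosomes and secretes the glycoproteins of the zona pellucida and growth factors such as GDF9 and BMP15, which act on the surrounding granulosa cells. Large and small follicles of the low fertility population were compared here as separate groups. The state of their oocytes along this course was not given in the sources used here.

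The 10 samples were unequal, and some stood apart from the rest. Between 6646 and 8689 genes were above 0.5 FPKM in an LLO sample and between 7421 and 8502 in an LSO sample, and the difference of means was within the spread (exact two-sided permutation test, p = 0.357). The rank correlation between pairs of samples over the genes tested ran from 0.596 to 0.938. LLO 2 and LLO 5 were nearest to each other (Spearman 0.836), whereas LLO 1 was nearest to LSO 5 (0.938), LLO 3 to LSO 3 (0.89) and LLO 4 to LSO 1 (0.902). No pair of samples held identical values. Since LLO 2 and LLO 5 stood apart, the counts below are also given without them, a choice made after the data were seen.

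The principal components showed no separation by follicle size. PC1 held 36.2% of the variance and PC2 29.6%, and the LLO and LSO scores overlapped on both (exact two-sided permutation tests of the scores, p = 0.341 and p = 0.294, both adjusted p = 0.512 over 3 components). LLO 2 had the highest PC1 score and LLO 5 the highest PC2 score. The average dissimilarity of a sample to its own group, taken as 1 minus the Spearman correlation, was 0.257 ± 0.02 (SD) in LLO and 0.164 ± 0.02 in LSO. The 5 LLO distances ran from 0.237 to 0.282 and the 5 LSO distances from 0.141 to 0.193, so LLO samples were less alike, but the exact permutation of the group labels gave p = 0.119. With Euclidean distance the same exact permutation test gave p = 0.0317. The mean distance between an LLO and an LSO sample, 0.215, lay between both within-group values.

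**Figure D1:**
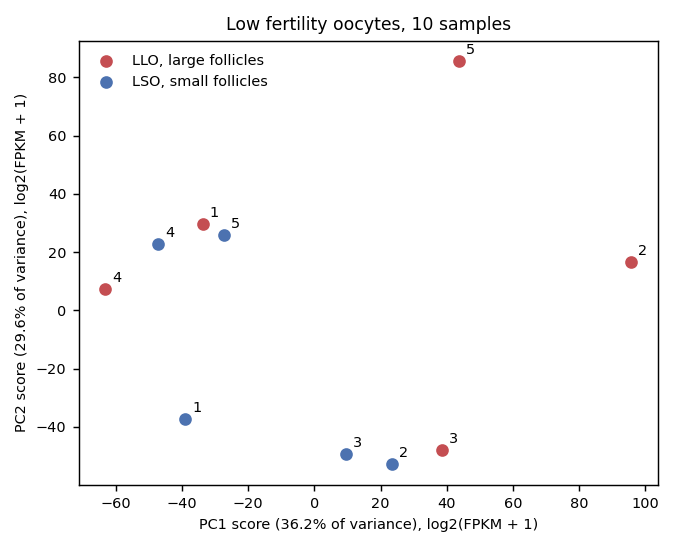
Scores of the 5 LLO (red) and 5 LSO (blue) samples on the first principal components of log2(FPKM + 1) over 8591 genes, with the replicate number beside each point. LLO 1 and LLO 3 lie beside LSO samples, whereas LLO 2 (95.7 on PC1) and LLO 5 (85.6 on PC2) lie away from all of them.

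No gene differed between LLO and LSO at an adjusted p under 0.05 (limma's moderated test on log2(FPKM + 1), Benjamini-Hochberg over 8591 genes, 0% called), and the smallest adjusted p was 0.952. At an unadjusted p under 0.05, 229 genes were counted, 2.67% of those tested. That share was below the 0.05 of genes that this limit passes on average with no difference at all. The exact Wilcoxon test gave 123 genes before adjustment and 0 after it. Its smallest possible p with 5 against 5 samples, 0.00794, passes adjustment only if a large share of genes reach it. Its 0 genes after adjustment are therefore no separate evidence. The genes described here were therefore counted by looser limits, an unadjusted p under 0.05 with a log2 fold change beyond 1, and their adjusted p was 0.952 in every case. By these limits 118 genes were lower in LLO (1.37% of genes) and 12 were higher (0.14%). This imbalance depended on scaling: the higher genes were 9.23% of the genes counted on the deposited scale, 30.1% with median-of-ratios factors (43 higher, 100 lower) 26.1% with quantile normalization (42 higher, 119 lower) and 5.64% after rescaling each sample to the same sum (15 higher, 251 lower). The median log2 fold change of all genes was -0.05, with 54.7% of genes below 0, and it turned to 0.08 with quantile normalization and to 0.05 without LLO 3.

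The groups did not overlap for 22 genes that were lower in LLO (0.256% of genes) and 5 that were higher (0.0582%). With no difference, full separation of the samples in either direction arises for a proportion of 0.00794 of genes, which is above these shares. Of the 118 lower genes, whose choice by itself favours a lowest value in LLO, 52 were lowest in LLO 2 and 45 in LLO 5, against 6 to 8 in each other LLO sample. Over all genes tested, LLO 2 or LLO 5 held the lowest value for 38.9%. LSO 1 held the highest value for 59 of the 118, LSO 2 for 29 and LSO 3 for 17. Without LLO 2 and LLO 5 the limits left 15 lower and 8 higher genes. Leaving out LLO 2 alone left 33 lower genes and leaving out LLO 5 alone left 28, while 598 were counted without LLO 4. The following groups of genes differ in whether they rest on these samples. The counts in each list are to be read beside the shares over all genes, 1.37% lower and 0.14% higher.

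**Figure D2:**
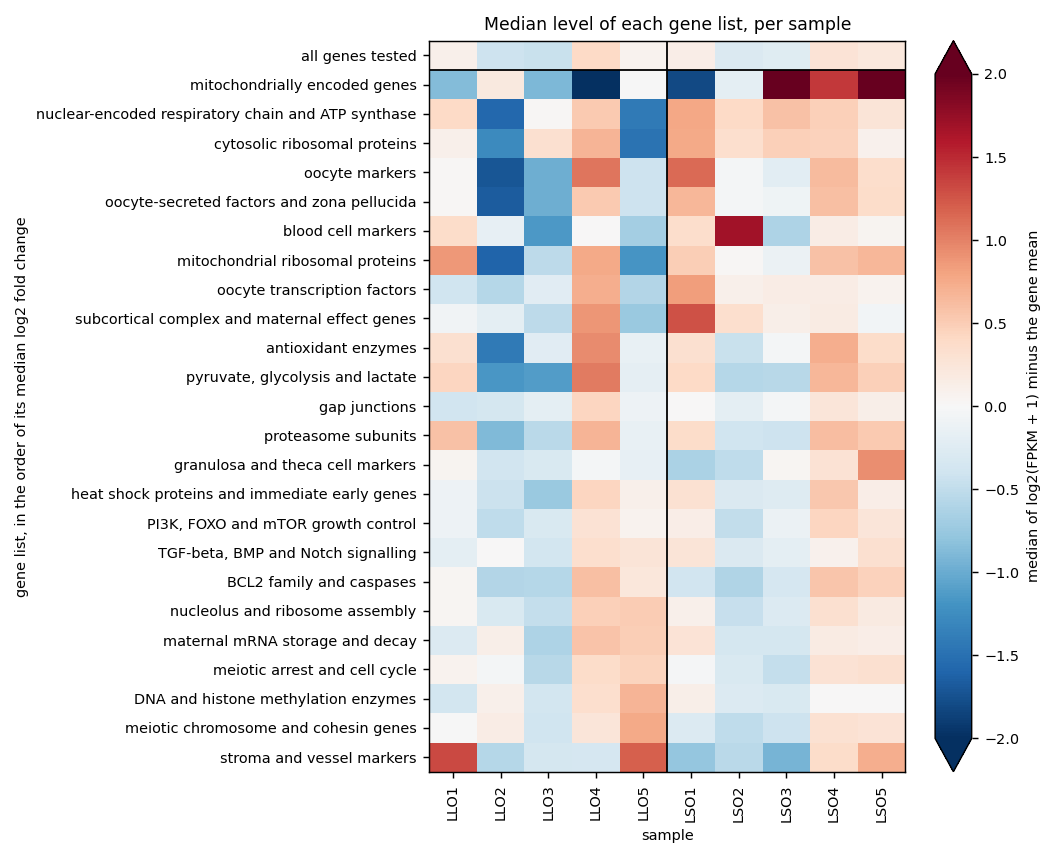
Median over each gene list of log2(FPKM + 1) minus the gene's mean over the 10 samples, for the 5 LLO (left) and 5 LSO (right) samples, with lists ordered by their median log2 fold change and all genes tested in the top row. LLO 2 and LLO 5 are low for the nuclear-encoded respiratory chain (-1.56 and -1.41) and cytosolic ribosomal proteins (-1.27 and -1.47), whereas mitochondrially encoded genes are high in LSO 3, LSO 4 and LSO 5.

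Transcripts of the mitochondrial genome were the group with the lowest median in LLO. This genome encodes 13 proteins, all of them core subunits of respiratory complexes or of the ATP synthase, and it is transcribed inside the organelle as long precursors that are cut into single messages. All 13 genes were tested and all 13 had a log2 fold change below 0, with a median of -1.77 against -0.05 over all genes. By the counting limits 6 of them were lower and 0 were higher in LLO. Without LLO 2 and LLO 5, 7 were lower and the median was -2.45. Without LSO 3 only 3 were lower, without LSO 1 there were 9, and without LLO 4 the median was -1.09.

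ND1, a subunit of complex I, had FPKM of 16, 28.4, 10.7, 0.552 and 19.3 in LLO 1 to 5 and 7.38, 31.8, 501, 138 and 229 in LSO 1 to 5. LSO 3, LSO 4 and LSO 5 were far above every LLO sample, LSO 2 was just above the highest of them and LSO 1 lay among them. Its log2 fold change was -2.91 ± 1.07 (SE), with an unadjusted p of 0.0168. COX1, the catalytic subunit of complex IV that reduces oxygen, had FPKM of 9.61, 8.41, 3.8, 0.392 and 1.68 in LLO and 3.53, 15.1, 25.1, 18.6 and 20.9 in LSO (-1.77 ± 0.64). Here LSO 1 alone fell within the LLO range. COX2, which takes electrons from cytochrome c, was at 1.31, 8.18, 2.07, 0.434 and 1.38 in LLO and at 3.01, 3.15, 53.4, 20.5 and 37.7 in LSO (-2.35 ± 0.78, unadjusted p = 0.00941).

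Both mitochondrially encoded subunits of the ATP synthase were among the 6. ATP6, part of its proton channel, had FPKM of 17.9, 42.9, 13.3, 1.24 and 23.8 in LLO and 6.99, 25.5, 747, 219 and 351 in LSO (-2.84 ± 1.16). ATP8, whose reading frame overlaps that of ATP6, was listed at 0, 2.96, 2.19, 2.6 and 3.1 in LLO and at 2.55, 0, 1048, 303 and 424 in LSO (-4.26 ± 1.63). For this gene 3 LSO samples were high and the other 2 were at the level of LLO, and ATP6 and ATP8 share sequence, so their FPKM may not be independent. ND6, the complex I subunit encoded on the other strand, was at most 3.17 FPKM in all LLO samples and at 57.2, 10.9 and 34.6 in LSO 3, LSO 4 and LSO 5 (-2.14 ± 0.94).

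The other 7 genes did not reach the limits, and their log2 fold changes ran from -2.07 for COX3, another core subunit of complex IV, to -0.20 for the complex I subunit ND2. COX3 had FPKM of 148, 184, 72.5, 2.95 and 165 in LLO and 51.6, 178, 1134, 365 and 443 in LSO (unadjusted p = 0.0727). LSO 3, LSO 4 and LSO 5 all exceeded every LLO sample for 9 of the 13 genes, and LLO 4 was the lowest of the 10 samples for 11 of them. In none of the 13 genes were the 2 groups fully apart.

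Summed over the 13 genes, the mitochondrial transcripts reached 346, 491, 211, 11.2 and 521 FPKM in LLO 1 to 5. In LSO 1 to 5 the sums were 122, 376, 4209, 1267 and 1965 FPKM. As a share of all FPKM in a sample, they made up 0.0806% ± 0.0588 (SD) in LLO and 0.372% ± 0.374 in LSO, a difference that the exact permutation test did not separate from the spread (p = 0.111, adjusted p = 0.222 over 4 measures). With each sample left out in turn, the p of this exact permutation test ran from 0.0238 (without LSO 1) and 0.0476 (without LSO 2) to 0.222 (without LLO 4). The oocyte mRNA was enriched with oligo(dT) beads, which bind poly(A) tails. In pooled oocytes, fewer oocytes that hold these transcripts, fewer transcripts in each oocyte and less capture by the beads cannot be told apart.

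**Figure D3:**
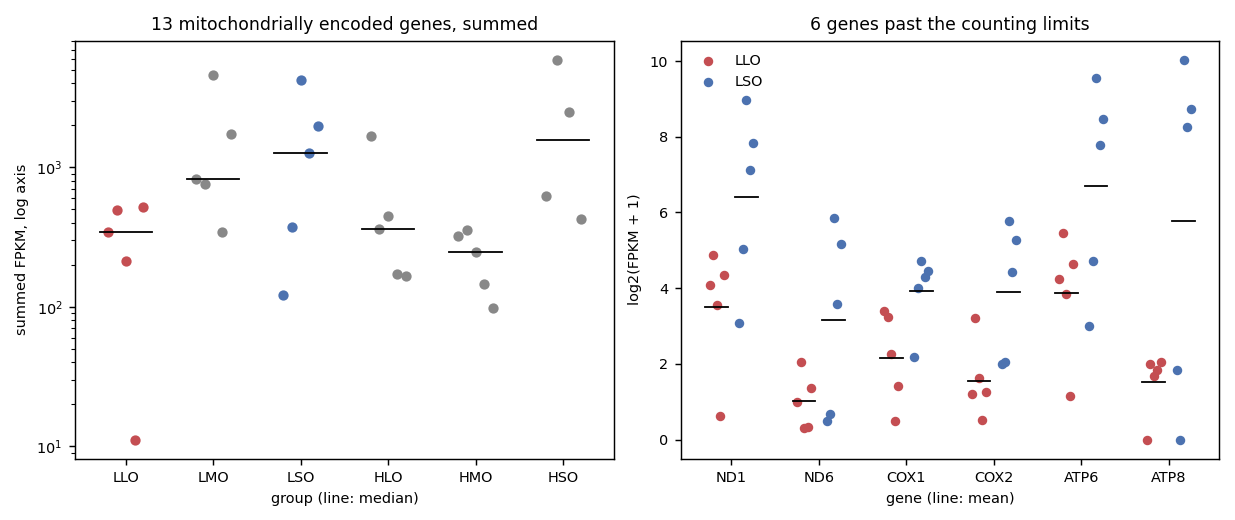
Left, summed FPKM of the 13 mitochondrially encoded genes in each of the 29 samples on a log axis, with the median of each group as a line. Right, log2(FPKM + 1) of the 6 genes past the counting limits in the 5 LLO (red) and 5 LSO (blue) samples, with group means as lines: LSO 3, LSO 4 and LSO 5 are high and LSO 1 and LSO 2 lie at the LLO level for most of them.

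The same direction was seen in the high fertility group, whose samples are separate. There all 13 genes were lower on average in HLO than in HSO, with a median log2 fold change of -1.51 against -0.11 over all genes of that comparison. The sums were 1684, 359, 447, 171 and 166 FPKM in the 5 HLO samples and 619, 5919, 2510 and 424 FPKM in the 4 HSO samples, so HLO 1, HSO 3 and HSO 4 were far above the rest of their groups. The sample numbered 3 held the highest sum in LSO, LMO and HSO (4209, 4611 and 5919 FPKM). In the other groups LLO 5, HLO 1 and HMO 2 held it. Whether the sample number bears on the shared direction was not tested. COX1 differed by -1.38 ± 0.63 between HLO and HSO and COX3 by -2.25 ± 1.07, with standard errors from a fit that also held LLO and LSO. The difference between the low and the high fertility contrast, tested as an interaction in limma, had an unadjusted p of 0.349 or more for each of the 13 genes, with estimates from -1.48 to 0.49.

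The nuclear genome supplies the remaining subunits of the respiratory chain and ATP synthase, and here the pattern across samples was another. Of 77 such genes tested, 9 were lower in LLO by the limits and 0 were higher, 61 had a log2 fold change below 0, and the median was -0.89. For 53 of the 77 the lowest value of the 10 samples was in LLO 2 or LLO 5, against 38.9% of all genes tested. Without these 2 samples 0 genes were counted and the median was -0.04. Leaving out LLO 4 in place of them gave 25 lower genes.

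ATP5IF1, the inhibitor that keeps the ATP synthase from running in reverse, was among the most abundant, with FPKM of 914, 94.2, 44, 1107 and 58.4 in LLO and 1003, 2104, 799, 1022 and 901 in LSO (-2.51 ± 0.88, unadjusted p = 0.0132). LLO 1 and LLO 4 lay at the LSO level and the other 3 LLO samples were far below it. UQCRQ, a small subunit of complex III, repeated this with 1177, 99.4, 48, 1519 and 105 FPKM in LLO and 1332, 1864, 519, 1347 and 1001 in LSO (-2.17 ± 0.91). UQCRFS1, the Rieske iron-sulphur protein of complex III, was lower on a much smaller scale, at 6.65, 0.414, 5.09, 9.32 and 1.27 FPKM in LLO and 15.5, 11.8, 15.1, 8.32 and 7.46 in LSO (-1.49 ± 0.56).

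The other 6 are named as subunits of complex I. NDUFB7 had FPKM of 284, 2.51, 2.53, 297 and 5.05 in LLO and 332, 225, 52.8, 225 and 173 in LSO (-2.92 ± 1.27). NDUFB11, whose symbol is carried by 2 genes and is therefore uncertain, was at 215, 8.57, 13.1, 323 and 12.8 in LLO and at 347, 273, 182, 302 and 208 in LSO (-2.61 ± 0.94). In both genes LLO 2, LLO 3 and LLO 5 were below every LSO sample, and LLO 1 and LLO 4 were not. NDUFC2 (-2.13 ± 0.86), NDUFAB1, which is also the mitochondrial acyl carrier protein (-2.18 ± 0.92), NDUFA4, a subunit later assigned to complex IV whose symbol is carried by 5 genes (-1.50 ± 0.67), and the core subunit NDUFS3 (-1.21 ± 0.55) completed the group.

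Abundant members that were not counted showed how far the samples differed within LLO. NDUFA6 was at 1754, 185, 4297, 1701 and 147 FPKM in LLO and at 1702 to 3744 in LSO. The most abundant row of ATP5J, a symbol carried by 3 genes, was highest in LLO 2 with 7640 FPKM, against 1018 to 3970 in the other LLO samples and 1228 to 3434 in LSO. NDUFC1, a symbol carried by 4 genes, had a log2 fold change of -0.99 ± 0.63. The low level in LLO 2 and LLO 5 thus did not extend to every gene of the list. The 10 highest genes made up 35.3% of all FPKM in LLO 2 and 27.3% in LLO 5, against 13.5% to 21.9% in the other samples. Their group means did not differ beyond the spread (exact permutation test, p = 0.286). Whether this share bears on the lists was not tested.

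Ribosomal protein genes followed the nuclear respiratory genes. Among 133 rows of cytosolic ribosomal proteins tested, 5 were lower in LLO by the limits and 0 were higher, 118 were below 0, and the median was -0.80. Of the 133 rows, 114 carry a symbol shared with other rows, and reads of such copies may have been divided between them. LLO 2 or LLO 5 held the lowest value for 98 of the 133, against 38.9% of all genes tested. Without both samples 0 were counted and the median was -0.07, whereas 46 were counted without LLO 4 alone. Together the ribosomal protein genes made up 5.31% ± 2.38 (SD) of all FPKM in LLO and 7.57% ± 1.54 in LSO (exact permutation test, p = 0.111, adjusted p = 0.222), with 3.92% in LLO 2 and 2.02% in LLO 5.

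RPL26, a large subunit protein, had FPKM of 324, 40.3, 763, 530 and 41.4 in LLO and 715, 847, 1125, 538 and 366 in LSO (-1.84 ± 0.83). In this gene LLO 2 and LLO 5 were far below every LSO sample, LLO 1 was just below the lowest, and LLO 3 and LLO 4 lay within the LSO range. RPL28 (-1.63 ± 0.67) and RPL10A (-1.62 ± 0.69), whose symbols are carried by 2 and 9 genes, were also counted. RPL21, among the most abundant of the list, was at 704 to 1381 FPKM in LLO and 976 to 1320 in LSO, with a log2 fold change of -0.15 ± 0.40.

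Of 70 mitochondrial ribosomal protein genes, whose products translate the 13 mitochondrial messages, MRPL37 alone was counted, as lower in LLO (53.5, 2.38, 39.2, 41 and 7.08 FPKM against 44 to 67.4 in LSO, -1.56 ± 0.73). This count was near the share over all genes, of which 1.37% were lower. The median of the 70 genes was -0.60, and it was 0.10 without LLO 2 and LLO 5, while 14 genes were counted as lower without LLO 4. MRPS14, the most abundant, was at 2229, 79.5, 3763, 2202 and 90.5 FPKM in LLO and at 1844 to 3613 in LSO, again low in LLO 2 and LLO 5. Of 48 proteasome subunit genes, PSMD8, part of the lid of the 19S regulatory particle, was lower (-1.40 ± 0.57), and the list's median was -0.25.

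**Figure D4:**
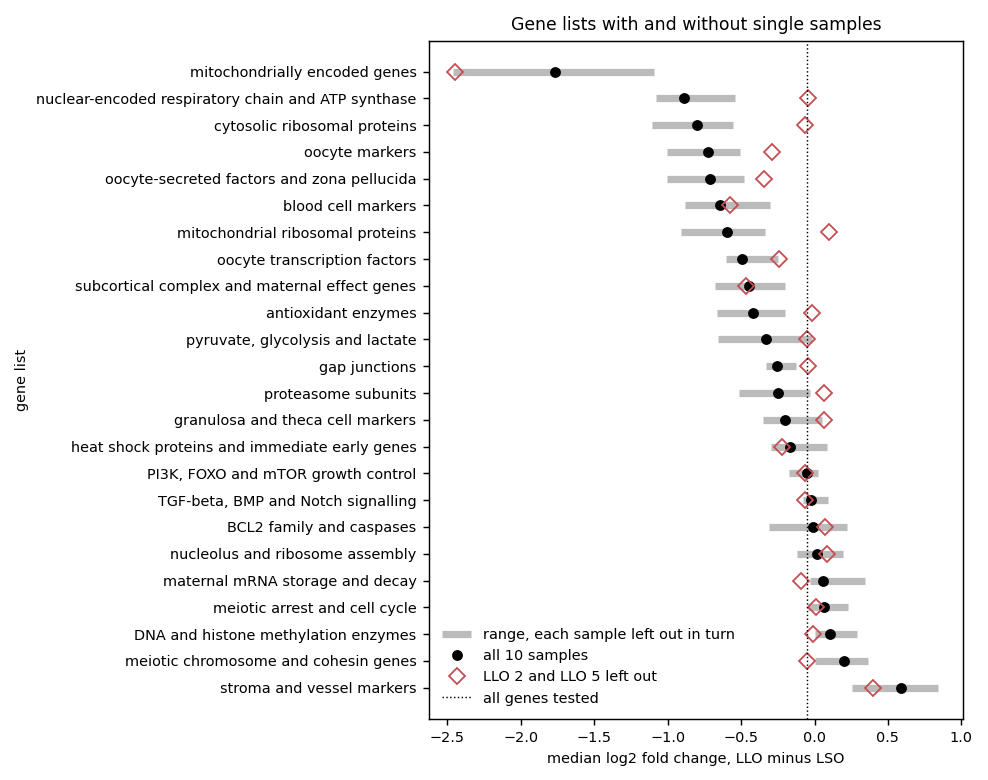
Median log2 fold change (LLO minus LSO) of each of 24 gene lists over all 10 samples (black dots), the range when each sample was left out in turn (grey bars) and the value without LLO 2 and LLO 5 (red diamonds), with the median of all genes tested as a dotted line. Without LLO 2 and LLO 5 the mitochondrially encoded genes stay below the line at -2.45, and the nuclear-encoded respiratory chain (-0.04), cytosolic ribosomal proteins (-0.07) and mitochondrial ribosomal proteins (0.10) lie near 0.

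Of 13 rows that mark the oocyte itself, 11 were tested and none of these reached the limits. NLRP5 was at most 0.615 FPKM and was not tested, and of both rows of DAZL 1 was listed at 0 in all 10 samples. The summed level of the 13 rows ran from 637 to 4848 FPKM in LLO and from 1630 to 5167 in LSO, with LLO 2, LLO 3 and LLO 5 the lowest of the 10. ZP3, a protein of the zona pellucida, was the most abundant. It had FPKM of 1369, 57.5, 404, 2945 and 265 in LLO and 2009, 819, 697, 2917 and 2195 in LSO (-1.64 ± 0.90, unadjusted p = 0.0923). GDF9, the growth factor that oocytes send to granulosa cells, was at 434, 33.1, 90.5, 504 and 210 in LLO and at 268, 86.9, 189, 696 and 525 in LSO (-0.70 ± 0.80). The values of both groups overlapped widely for both genes. BMP15, the partner of GDF9, differed by -0.40 ± 0.48.

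All 9 tested genes of oocyte-secreted factors and the zona pellucida had a log2 fold change below 0, with a median of -0.71, which was -0.34 without LLO 2 and LLO 5. IZUMO1R (JUNO), the oocyte receptor for the sperm protein IZUMO1, was nearest to the limits, with 7.87, 5.85, 10.1, 18 and 4.35 FPKM in LLO and 41.8, 17.9, 20.4, 9.91 and 11.2 in LSO (-1.01 ± 0.51, unadjusted p = 0.0658). KIT, the receptor for the granulosa cell factor KITLG, differed by -0.74 ± 0.51. Among 11 oocyte transcription factors, 8 were below 0 and 0 were counted. LHX8, a homeobox factor needed for the growth of early oocytes, stood at 20.9, 7.51, 25.7, 51.6 and 9.14 FPKM in LLO and 65.5, 40.9, 45.3, 34.9 and 32.4 in LSO (-1.17 ± 0.55, unadjusted p = 0.0504). LLO 4 was the only LLO sample within the LSO range.

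Among 12 maternal effect genes, which the oocyte stores for the early embryo, NLRP9 was lower in LLO, at 37.8, 8.7, 31.9, 45.7 and 16.3 FPKM against 118, 79.5, 42.4, 42.4 and 63 in LSO (-1.37 ± 0.55, unadjusted p = 0.0258). LLO 4 overlapped the LSO range. NPM2, the oocyte nucleoplasmin that remodels sperm chromatin, was at 616 to 1767 FPKM in LLO and at 523 to 1438 in LSO (0.21 ± 0.48). GTSF1, a zinc finger protein of the piRNA pathway whose symbol is carried by 2 genes, was at 1396, 39.7, 1014, 736 and 91.7 in LLO and at 722 to 1194 in LSO (-1.51 ± 0.88).

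Genes for mRNA storage and decay were not counted in either direction among 31 tested, and their median was 0.05. BTG4, the adaptor that brings the CCR4-NOT deadenylase to maternal mRNAs, was at 1894, 1251, 660, 1314 and 2653 FPKM in LLO and at 409, 389, 520, 1657 and 1462 in LSO (0.95 ± 0.58, unadjusted p = 0.122). LSO 4 and LSO 5 lay within the LLO range. ZAR1, which holds maternal mRNA in storage, was at 34.9, 8.58, 114, 124 and 3.18 in LLO and at 133, 127, 175, 65.2 and 43.7 in LSO (-1.75 ± 0.89, unadjusted p = 0.0698).

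Meiotic genes were also without a count, at 0 of 43 for arrest and cell cycle genes and 0 of 21 for cohesin and recombination genes. Their medians were 0.06 and 0.20. CKS2, a small subunit of cyclin-dependent kinases, was abundant in every sample, at 4635 to 8788 FPKM in LLO and 2627 to 6454 in LSO (0.57 ± 0.42). CDC25C, the phosphatase that activates CDK1 at the entry into M phase, was at 24.7, 25.7, 13.3, 15.5 and 59.3 in LLO and at 2.35, 5.51, 11.3, 28 and 26.4 in LSO (1.10 ± 0.65, unadjusted p = 0.114). Of 20 DNA and histone methylation enzymes none were counted, and DNMT1, the maintenance methyltransferase, was at 41 to 432 FPKM in LLO and 38.8 to 107 in LSO.

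Stress and signalling genes held a few of the counted genes. So few counts in short lists, beside 1.37% lower over all genes, describe these genes and not the lists. HSPA5 (BiP), the main chaperone of the endoplasmic reticulum, had FPKM of 4.34, 1.65, 4.4, 15.3 and 2.67 in LLO and 54.7, 17.4, 12.7, 20.1 and 20 in LSO (-2.08 ± 0.55, unadjusted p = 0.00223). All LLO samples except LLO 4 were below every LSO sample, and without LLO 2 and LLO 5 the log2 fold change was -1.55. ATF4, a transcription factor of the same stress response, was at 36.5, 13.9, 43.9, 92.9 and 11.4 in LLO and at 179, 87.8, 52.3, 49.1 and 72.9 in LSO (-1.35 ± 0.62). These were 2 of 28 genes of heat shock proteins and immediate early factors, whose median was -0.17.

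HES1, a transcriptional repressor induced by Notch, was at 18.5, 6.11, 48.3, 73 and 3.07 FPKM in LLO and at 140, 84.9, 57.9, 36 and 57.9 in LSO (-1.91 ± 0.76), and it was the only counted gene among 25 of the TGF-beta, BMP and Notch pathways. CDKN1B (p27), an inhibitor of cyclin-dependent kinases under FOXO control, was at 2.38, 0.953, 5.74, 5.77 and 1.8 in LLO and at 8.5, 9.22, 7.09, 4.09 and 6.28 in LSO (-1.02 ± 0.44), the only counted gene of 22 in PI3K, FOXO and mTOR growth control. For both genes LLO 2 and LLO 5 were the lowest samples. ALDOA, the glycolytic aldolase, was the only counted gene of 25 in glycolysis and pyruvate use (-1.31 ± 0.60).

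Antioxidant enzymes gave 0 counted genes of 28, with a median of -0.42 that was -0.02 without LLO 2 and LLO 5. Without LLO 4, 8 of them were counted as lower. TXN (thioredoxin) was nearest to the limits, at 137, 30.9, 825, 732 and 29.2 FPKM in LLO and 604, 781, 1354, 484 and 280 in LSO (-2.02 ± 0.94, unadjusted p = 0.0505). Of 10 BCL2 family and caspase genes and 4 gap junction genes none were counted, with medians of -0.01 and -0.25. GJA4 (connexin 37), which forms the channels between oocyte and granulosa cells, was at 0 to 1.69 FPKM in LLO and 0.636 to 1.72 in LSO.

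The nucleolar genes held a counted gene in each direction among 39 tested, with a median of 0.01. NPM1 (nucleophosmin), a chaperone of ribosome assembly, was higher in LLO, at 336, 505, 251, 454 and 673 FPKM against 140, 103, 176, 325 and 325 in LSO (1.12 ± 0.51, unadjusted p = 0.0453). LLO 3 alone lay within the LSO range. FBL (fibrillarin), which methylates ribosomal RNA, was lower, at 14.8, 2.98, 15.9, 18 and 2.22 in LLO and 62.9, 22, 23.5, 12.7 and 15.9 in LSO (-1.40 ± 0.63, unadjusted p = 0.0448).

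Of the 12 genes that were higher in LLO, all but NPM1 were outside the lists. DUSP21, an atypical dual specificity phosphatase, was at 15.6, 30.2, 11.2, 0.575 and 16.9 FPKM in LLO and 0.693, 0, 2.39, 1.27 and 2.02 in LSO (2.43 ± 0.69, unadjusted p = 0.00372). LLO 4 was at the LSO level and the other LLO samples were above every LSO sample. LOC102172954, a gene named only by its locus number, was at 9.76, 20.6, 37.7, 17.1 and 21.2 in LLO and at 9.56, 6.49, 6.25, 8.46 and 5.01 in LSO, without overlap (1.36 ± 0.44, unadjusted p = 0.00783). Without LLO 2 and LLO 5 these genes differed by 1.71 and 1.29 and were still counted.

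CD3EAP, a subunit of RNA polymerase I, was also without overlap, at 0.748 to 3.17 FPKM in LLO and at most 0.571 in LSO (1.10 ± 0.29), a low level in both groups. A row of ERH, a small protein that takes part in RNA processing and whose symbol is carried by 5 genes, was at 0.792, 2.32, 0.667, 1.66 and 0.865 in LLO and was listed at 0 in all 5 LSO samples. It passed the filter through LLO alone, so its difference was set by the filter and is a description. Its unadjusted p of 0.000134 was the smallest of all genes and its adjusted p was 0.952.

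Several more abundant genes were higher on average with overlap. RBM34, an RNA-binding protein, was at 148, 438, 142, 92.6 and 265 FPKM in LLO and at 39.6, 71.2, 80.9, 119 and 112 in LSO (1.23 ± 0.54). TRIM77, of the tripartite motif family, was at 209, 316, 182, 63.2 and 538 in LLO and at 64.6, 62.2, 78.9, 97.1 and 157 in LSO (1.27 ± 0.59). LIN7C, a scaffold of cell junctions (1.46 ± 0.67), C18orf32 (1.21 ± 0.56) and TRDN (triadin), known from the calcium release units of muscle (1.28 ± 0.50), had their highest value in LLO 2 or LLO 5.

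**Figure D5:**
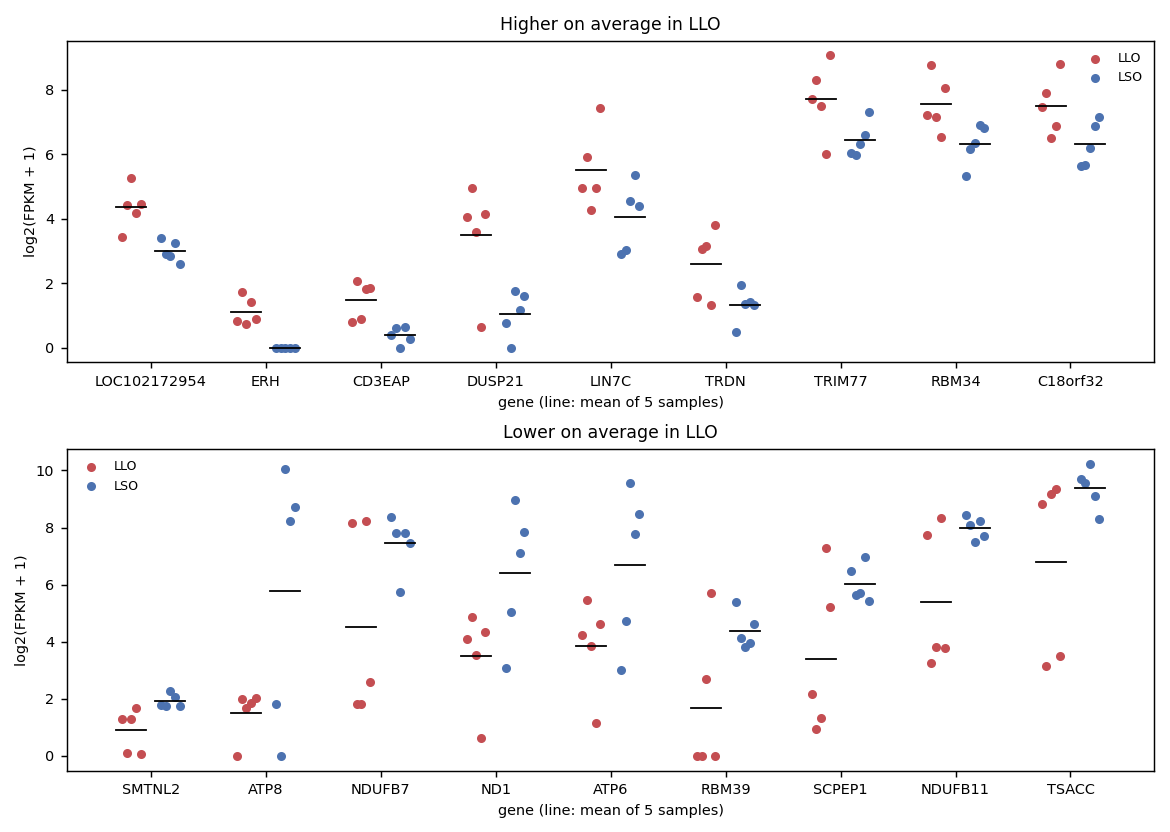
log2(FPKM + 1) of 9 named genes that were higher (top) and 9 that were lower (bottom) on average in LLO, for the 5 LLO (red) and 5 LSO (blue) samples, with group means as lines. LOC102172954, ERH, CD3EAP and SMTNL2 show no overlap, and for the other genes at least 1 LLO sample lies within the LSO range or the reverse.

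Among the lower genes outside the lists, SMTNL2, a smoothelin-like protein, was the only named gene without overlap, at 1.47, 0.064, 1.46, 2.23 and 0.0555 FPKM in LLO and 2.41, 2.4, 3.79, 3.17 and 2.36 in LSO (-1.03 ± 0.36). SCPEP1, a serine carboxypeptidase, was at 3.54, 0.907, 1.54, 154 and 36.5 in LLO and at 88.8, 48.9, 51, 123 and 41.7 in LSO (-2.65 ± 1.04). TSACC, a co-chaperone of testis-specific kinases, was at 449, 7.89, 579, 658 and 10.3 in LLO and at 828, 760, 1211, 547 and 313 in LSO (-2.58 ± 1.19). A row of RBM39, a splicing factor whose symbol is carried by 4 genes, was listed at 0 in LLO 1, LLO 2 and LLO 5, at 5.44 and 50.8 in the other LLO samples and at 13.2 to 41 in LSO (-2.71 ± 0.96).

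A gene chosen after its values were seen was LSM6, a member of the ring that binds the ends of RNAs marked for decay, whose symbol is carried by 3 genes. It was listed at 0 in all 5 LLO samples and at 6.07, 2.61, 3.03, 5.79 and 0 FPKM in LSO. Without LSO 5 it was the only gene with an adjusted p under 0.05 in limma (adjusted p = 0.0174), and with all 10 samples its adjusted p was 0.952. It entered the test through LSO alone.

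The part of other cell types in the differences was not tested. Summed over 20 granulosa and theca cell markers, the level was 21.6 to 37.8 FPKM in LLO and 12.4 to 78.4 in LSO, at most 0.0189% of all FPKM. AMH, AMHR2, GATA4, INSL3 and NR5A1 were listed at 0 in all 10 samples, and FSHR and CYP19A1 never exceeded 0.283 FPKM. Other members were higher in some LSO samples. TNFAIP6 was at 18.2 FPKM in LSO 5 and at most 0.575 in the other samples, and FST was at 1.54 in LSO 3 and 1.05 in LSO 5. The 6 granulosa and theca members tested are none of those named here, and they carried most of the sum in every sample. The median log2 fold change of these 6 was -0.20. The low values of the named members therefore do not show that transcripts of this list were absent. The 14 stroma and vessel markers summed to 7.12 to 44.8 FPKM in LLO and 5.80 to 24.1 in LSO. CDH5 and PDGFRA were listed at 0 in all 10 and LUM was at up to 1.55 FPKM (LLO 1). The 3 stroma and vessel members tested are others and carried most of each sum. Their median log2 fold change was 0.59, the highest of the 24 lists. Their median level relative to the gene means was highest in LLO 1 (1.33), LLO 5 (1.19) and LSO 5 (0.73). The 13 blood cell markers summed to 0.758 to 4.6 FPKM in LLO and 1.30 to 10.2 in LSO. No member of these lists reached the counting limits, among 6, 3 and 1 genes tested.

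The contrast between large and small follicles was then set beside that of the high fertility group, which has no sample in common. HLO against HSO gave 9 higher (0.0964%) and 7 lower genes (0.075%) by the same limits among 9336 genes. At an unadjusted p under 0.05 limma counted 60 genes (0.643%, a share below 0.05), and 0 after adjustment. This contrast was taken from a fit over 19 samples, whose spread includes LLO and LSO. Its counts are therefore not like for like with those of LLO against LSO, which were fitted alone. Of the 118 genes that were lower in LLO than LSO, 55 were also lower on average in HLO than HSO, where 68% of all genes were below 0. Of the 12 higher genes, 5 were also higher. Across 8591 genes the log2 fold changes of both contrasts correlated at -0.11 (Pearson) and -0.14 (Spearman), a description over genes that are not independent.

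Tested as an interaction over 19 samples, 0 of 9336 genes differed between the contrasts after adjustment (smallest adjusted p = 0.971, 0% called) and 179 had an unadjusted p under 0.05 (1.92%). This share too was below the 0.05 that the limit passes on average with no difference. FANCF, a DNA repair protein of the Fanconi anaemia core complex, was at 3.11, 1.95, 3.78, 7.46 and 1.71 FPKM in LLO and at 8.51, 8.62, 9.2, 3.94 and 6.93 in LSO, and at 5.16 to 10.4 in HLO and 2.56 to 6.14 in HSO. Its contrast was -0.96 in the low and 0.75 in the high fertility group (interaction -1.70 ± 0.49, unadjusted p = 0.00253). PRKX, a cAMP-dependent kinase, had the smallest p of all (interaction -1.11 ± 0.27, unadjusted p = 0.000494), at 0 to 0.488 FPKM in LLO, 0.242 to 1.5 in LSO, 0.592 to 1.06 in HLO and 0.265 to 0.379 in HSO.

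In the other direction LOC102172954 was at 3.37 to 17 FPKM in HLO and 6.46 to 17.2 in HSO, so its contrast was -0.48 there against 1.36 in the low fertility group (interaction 1.84 ± 0.62). LOC102170446 was at most 0.0562 FPKM in all LSO samples and at 2.64 to 5.7 in HSO (interaction 2.15 ± 0.58), with 5.04 in LLO 5 and at most 0.263 in the other LLO samples. CD3EAP was at most 0.78 FPKM in any HLO and HSO sample (interaction 1.24 ± 0.35). PCNP (1.17 ± 0.36), TFF1 (1.08 ± 0.35), NRG3 (-1.15 ± 0.31), C19orf24 (-0.95 ± 0.26) and TSR3 (-1.31 ± 0.40) had low levels, with values of at most 3.43 FPKM (PCNP in LLO 5) in these 4 groups. The nuclear respiratory genes ATP5IF1 and NDUFB11 differed by 1.30 and 0.61 between HLO and HSO, against -2.51 and -2.61 between LLO and LSO. Their interactions in limma were -3.81 and -3.22 (unadjusted p = 0.01 and 0.0173). Both were chosen for their LLO minus LSO values, which also enter the interaction, so the choice by itself favours a low p.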

How the data were processed

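Oocyte RNA was sequenced from 29 samples, of which the 5 LLO and 5 LSO samples were compared here and 9 of HLO and HSO served beside them. The authors enriched it with oligo(dT) beads, so the level of a gene also depends on the capture of its poly(A) tails. The deposited values are FPKM per gene, which the authors obtained with Cufflinks 2.2.1 and Ensembl gene models after goat genome alignment, a filter for uniquely placed reads (under 5 mismatches) and duplicate removal by picard. The aligner and the genome build are not given in the sources used here, and 1 column that matched no sample was not used. FPKM holds no counts. Ratios of values under 0.1 FPKM in pairs of samples were searched for a pile-up such as single reads would give. The densest window of 0.01 on the log2 scale held 1.06% to 5.26% of genes, so whole reads were not recovered. Read counts and mapping totals published with the paper were not used here, so no depth and no counting interval is given. FPKM summed to 347806 to 448945 per sample. FPKM is relative, so a rise in abundant genes lowers the others.

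Genes that exceeded 0.5 FPKM in 4 or more of the 10 samples were tested on log2(FPKM + 1) with limma 3.58.1 (R 4.3.3; moderated test with a trend, Benjamini-Hochberg). A fold change on this scale understates that of low genes. The filter left out 12752 genes, of which 5310 were at 0 in all 10 samples, and 12 genes passed through 1 group with no value above 0.5 in the other. 1278 genes tested share a symbol with another gene and are uncertain where named. Library measures, components and distances were compared by exact two-sided permutation over all assignments, whose smallest p is 0.00794. The interaction and the contrast of HLO against HSO were fitted over 19 samples. Named genes were up to 10 per direction past the counting limits (unadjusted p under 0.05, log2 fold change beyond 1), those without overlap first and then by size, in each of 24 lists the members past these limits or nearest to them and the most abundant, and up to 5 per direction of the interaction. Some genes that the rule names are not reported here. Members and lists were chosen with earlier results of these data known. The procedures were tested on simulated data, in which 200 of 8591 genes were given a log2 change of 2. Of these, 79.5% passed the counting limits and 28.5% an adjusted p under 0.05. Among the unchanged genes, 244 passed the counting limits and 1 the adjusted limit. For the interaction, with 200 of 9336 genes changed, 16% passed adjustment. Alternatives were other pseudocounts, filters, scalings, weights, fits and tests, a replicate block and each sample left out.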

Additional observations from a re-analysis of the deposited data

Results flagged for a closer look

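In 108 groups of 5 samples (library measures, the within-group distance, marker sums and 44 counted genes, each in LLO and LSO), a single sample lay far from the other 4 by Dixon's ratio 5 times, where chance gives about 1 in 20 groups. In LSO 2 the blood cell markers summed to 10.2 FPKM, against 1.30 to 3.86 in the other LSO samples. ATP8 was listed at 0 in LLO 1 (0 on the log2 scale), against 1.67 to 2.04 in the other LLO samples. COX1 was lowest in LSO 1, at 2.18 on the log2(FPKM + 1) scale against 4.01 to 4.71. RPL10A was highest in LSO 1, at 4.48 against 3.89 to 4.05, and ATP5IF1 was highest in LSO 2, at 11 against 9.64 to 10. The cause of these values was not tested.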

How the results depend on the processing

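No gene passed an adjusted p of 0.05 under any other setting except LSM6 without LSO 5, so the count was 0 to 1 over samples left out. Over samples left out, the genes at an unadjusted p under 0.05 ranged from 59 (without LLO 5) to 960 (without LLO 4), the higher genes from 6 (without LSO 1 or LSO 3) to 87 (without LLO 3), the lower genes from 28 (without LLO 5) to 598 (without LLO 4) and the interaction counts from 91 (without LLO 5) to 703 (without LLO 4), with 0 to 0 after adjustment. Other higher counts were 20 (pseudocount 0.1), 43 (median-of-ratios factors), 42 (quantile normalization), 19 (no trend), 34 (all 29 samples) and 6 (exact Wilcoxon test). Lower counts were 231 (pseudocount 0.1), 251 (rescaled to a sum of 1000000), 406 (all 29 samples) and 24 (exact Wilcoxon test). Unadjusted counts were 454 (no filter), 927 (all 29 samples) and 123 (exact Wilcoxon test). Without LLO 2 and LLO 5, chosen after seeing the data, 48 genes had an unadjusted p under 0.05 and 15 were lower. Interaction counts were 312 (quantile), 291 (median-of-ratios), 603 (array weights) and 282 (all 29 samples). The median of all genes was -0.13 with a pseudocount of 0.1, -0.10 after rescaling and 0.08 with quantile normalization, and ranged from -0.16 (without LLO 4) to 0.05 (without LLO 3) over samples left out.

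With the replicate number as a block, 525 genes had an unadjusted p under 0.05, 51 were higher and 287 lower, the interaction gave 440, and 0 passed adjustment. The numbers were not taken as pairs, since no source ties them to a shared origin and deviations of same-numbered samples correlated at -0.26 to 0.53, above 0.1 in 4 of 5 pairs and not in every pair, and 3 LLO and 1 LSO samples correlated best with their own number.

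Over samples left out, the LLO minus LSO difference ranged from -723 to -212 genes detected, from -0.375 to -0.142 percentage points for mitochondrial genes, from -2.94 to -1.43 for ribosomal proteins, from 2.21 to 7.66 for the 10 highest genes and from 0.0761 to 0.112 for the within-group distance. Euclidean distance gave a difference of 36.7 (p = 0.0317 by exact permutation). Of 44 named genes past the counting limits, 9 were counted under all 21 other settings, apart from the joint removal of LLO 2 and LLO 5: ATP5IF1, COX1, COX2, DUSP21, HSPA5, LOC102172954, ND1, NDUFB11 and RBM39. None of the 44 changed direction under these settings. Without LLO 2 and LLO 5 together, 8 of the 44 were still counted. Without LLO 2, 31 of the 44 lost their count, without LLO 5, 30, and without LSO 1, 26. The cause was not tested. Depth was not used, and low FPKM limits the precision of genes such as CD3EAP and ERH.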
